A study of Homo sapiens with 6 samples.

Results

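The microtubule nucleation machinery was examined in A549 cells after knockdown of CEP20, a centrosomal protein. The 10 genes followed here encode the γ-tubulin ring complex and its targeting factor, and were picked by symbol from the 60624 Ensembl genes of the deposited table: TUBG1, TUBGCP2 to TUBGCP6, MZT1, MZT2A, MZT2B and NEDD1. Each symbol matched 1 row, and all 10 passed the filter on low values, a mean TPM of 1 or more. TPM is a measure of transcript abundance that divides by transcript length and scales every library to the same total.

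A549 cells are a widely used line derived from a lung adenocarcinoma. RNA-seq was performed on 3 siCTR samples, which received a control small interfering RNA (siRNA), and on 3 siCEP20 samples, which received siRNA against CEP20. The sample labels give 3 days of transfection for both groups, F-12K medium with serum, and a genotype of "control" or "CEP20 knockdown". A label field shared by all 6 samples names a plasmid transfection, whereas the methods describe lipid delivery of siRNA, and the labels do not say which of the CEP20 siRNAs listed in the methods was used. The labels also do not say whether the libraries of a group came from separate cultures, so p-values measure the spread between these samples only.

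The γ-tubulin ring complex is the template from which new microtubules grow. γ-Tubulin and the proteins GCP2 and GCP3 form a small complex, several of which assemble with GCP4, GCP5 and GCP6 into a ring that caps the minus end of the microtubule. The small MOZART proteins MZT1 and MZT2 bind the amino-terminal parts of GCP proteins, and NEDD1 brings the finished ring to the centrosome and the spindle. In animal cells the centrosome is the main site where this complex acts.

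The targeted gene was lower in each knockdown library. CEP20 was at 29.2, 30.5 and 35.1 TPM in the siCTR samples and at 16.2, 15.3 and 17.3 TPM in the siCEP20 samples, or 51.4% of the control mean (log2 fold change -0.92; the Benjamini-Hochberg adjusted p of limma over all 14778 genes tested was 0.000205). Library totals are fixed by the TPM unit, so sequencing depth is unknown. The pairwise correlation of log2(TPM + 1) between libraries lay between 0.9637 and 0.9857. Epithelial markers were present in every library (KRT8 at 1530 TPM or more), although EPCAM did not exceed 3.85 TPM. Of 6 markers of leukocytes, endothelium and fibroblasts, COL1A2 was listed at 0 in all libraries and PTPRC, PECAM1 and VWF did not exceed 0.0982 TPM, while CD68 and COL1A1 were detected and were higher in siCEP20 samples. The sum of the 6 markers ran from 20.5 to 28.9 TPM in siCTR and from 46.6 to 62.8 TPM in siCEP20 samples, and its part in the results below was not tested.

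On the deposited TPM scale, knockdown of CEP20 was accompanied by opposite changes within the ring complex genes. The MOZART genes MZT2A and MZT2B fell to 74.6% and 71.4% of the control mean, whereas TUBG1 and NEDD1 rose to 127% and 136%. The 5 TUBGCP genes and MZT1 did not pass the test. At an adjusted p under 0.05 (limma on log2(TPM + 1), Benjamini-Hochberg over all genes tested), 2 of the 10 genes were higher, against 30.2% of all tested genes, and 2 were lower, against 13.2%. With the study's fold change thresholds added (over 1.5 or under 0.67), 0 of the 10 were called higher, against 11.2% of all tested genes, and 0 lower, against 4.61%. The study applied these thresholds with DESeq2, a different test from the limma fit on deposited TPM used here. The siCEP20 values lay all above the siCTR values in 2 members, against 38.4% of all tested genes, and all below them in 3 members, against 17%. With 10 genes, no count is read as a property of the complex against this background. Their median log2 fold change was -0.07, while that of all tested genes was 0.13.

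Several of these calls depended on the scale between libraries. Dividing each library by its median of ratios to the geometric mean moves the median of all tested genes from 0.13 to 0. On that scale MZT2A and MZT2B remained past the threshold, TUBG1 (log2 fold change 0.19, adjusted p = 0.0793) and NEDD1 (0.28, adjusted p = 0.0611) no longer passed, and TUBGCP2 (-0.25, adjusted p = 0.00812) and MZT1 (-0.38, adjusted p = 0.0077) were lower. Members higher and lower at an adjusted p under 0.05 were then 0 and 4, against 20.1% and 21.6% of all tested genes. With the fold change thresholds added, MZT2B was then called lower (-0.63). Over all tested genes, 70.9% of such calls were higher on the deposited scale and 44.8% after median-of-ratios scaling. The paper reports nearly equal numbers of upregulated and downregulated genes from DESeq2. Ratios between genes within a library, given further on, do not depend on the scale between libraries.

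**Figure D1:**
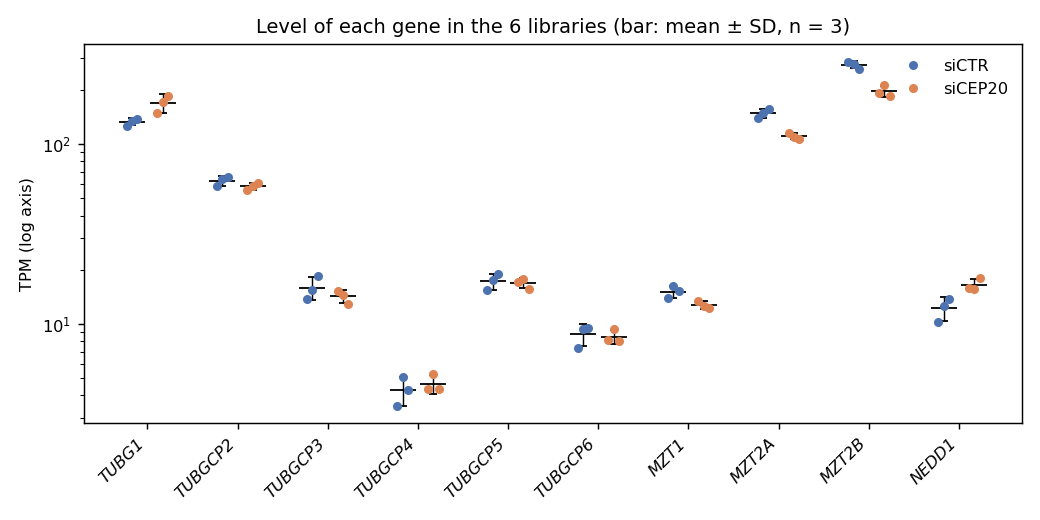
TPM of the 10 genes (log axis) in each of the 3 siCTR and 3 siCEP20 libraries, with the mean and SD of each group as bars. MZT2A and MZT2B sit lower and TUBG1 and NEDD1 higher in all siCEP20 libraries, while the points of the TUBGCP genes overlap.

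MZT2A and MZT2B encode the 2 copies of MOZART2, the small subunit bound to GCP2. Both lie on chromosome 2 of hg38, MZT2B from 130181737 to 130190729 on the plus strand and MZT2A from 131464900 to 131492743 on the minus strand. The copies are nearly identical, and their sequences are shown because reads must be divided between them. Their promoter windows in RefSeq (GRCh38.p14, 250 bases before and 50 after the annotated start), written in the direction of the gene, are given with the bases that differ between the copies in capitals.
MZT2A, chr2:131492348-131492647, minus strand: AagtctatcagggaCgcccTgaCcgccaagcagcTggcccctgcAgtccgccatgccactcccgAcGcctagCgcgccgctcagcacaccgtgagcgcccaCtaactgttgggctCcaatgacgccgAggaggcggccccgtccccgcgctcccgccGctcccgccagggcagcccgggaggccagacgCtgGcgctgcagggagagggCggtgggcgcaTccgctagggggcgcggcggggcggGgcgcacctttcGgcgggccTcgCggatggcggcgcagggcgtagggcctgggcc
MZT2B, chr2:130182012-130182311, plus strand: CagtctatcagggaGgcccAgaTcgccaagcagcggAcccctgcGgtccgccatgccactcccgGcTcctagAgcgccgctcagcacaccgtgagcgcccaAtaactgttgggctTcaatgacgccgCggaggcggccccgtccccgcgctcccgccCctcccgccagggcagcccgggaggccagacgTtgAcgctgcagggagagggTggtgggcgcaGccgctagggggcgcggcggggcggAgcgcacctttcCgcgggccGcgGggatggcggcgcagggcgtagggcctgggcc
The aligned windows were 92.7% identical, with 22 edits over 300 bases. The canonical transcripts, 599 nt each in GENCODE release 44, were 97.3% identical, with 16 edits. Of all windows of 150 bases (the length of a sequencing read here) in the MZT2A transcript, 5.8% also occur in MZT2B, so most windows hold a difference between the copies.

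MZT2B was the most abundant of the 10 genes in siCTR cells. It was at 287, 280 and 262 TPM in the siCTR samples and at 193, 212 and 186 TPM in the siCEP20 samples. All siCEP20 values lay below all siCTR values, and the mean fell from 276 ± 12.8 to 197 ± 13.5 TPM (SD, n = 3 each). The log2 fold change was -0.48 (standard error 0.0655, 95% interval -0.63 to -0.33, adjusted p = 0.000802 from limma). MZT2A was at 140, 148 and 157 TPM in the siCTR samples and at 115, 110 and 107 TPM in the siCEP20 samples, again without overlap. The mean of 148 ± 8.57 TPM fell to 111 ± 4.27 TPM, and limma gave a log2 fold change of -0.42 with a 95% interval from -0.56 to -0.27 (standard error 0.0627, adjusted p = 0.00125). The 2-sided exact permutation test gave p = 0.1 for each, which is the lowest p that 3 against 3 samples can reach.

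Because reads can be split between near-identical copies, the pair was also tested as a sum. MZT2A plus MZT2B came to 427, 427 and 419 TPM with control siRNA and to 308, 323 and 293 TPM after knockdown. For the summed row limma gave -0.46 on the log2 scale (standard error 0.0517, adjusted p = 0.000339). MZT2B supplied 65.1% ± 2.37 of the sum in siCTR and 64% ± 1.61 in siCEP20 samples (SD, n = 3), ranges that overlap, so no shift between the copies was detected. MZT2B overlaps SMPD4 on the opposite strand over 1014 bases, and 9.6% of its windows of 150 bases also occur in SMPD4 transcripts. SMPD4 moved the other way, from 46.6, 46.1 and 50.8 TPM in siCTR to 63.7, 66.1 and 68.3 TPM in siCEP20 samples. Whether reads of one were counted to the other was not tested.

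The MZT2 transcripts are the shortest of the 10 and rich in G and C (66.8% and 67.1%). Both belong to the shortest quintile of tested genes by canonical transcript (53 to 1301 nt), whose median log2 fold change was -0.05 with 26.1% of genes lower at an adjusted p under 0.05, and to the highest quintile by GC content. In the 682 genes that share both quintiles the median was -0.07 and 29% were lower. After subtracting a loess curve of transcript length and GC content from each library, the log2 fold changes were closer to 0, at -0.20 for MZT2A (adjusted p = 0.0464) and -0.27 for MZT2B (adjusted p = 0.00988). Both still passed the threshold. The part of length in the fall of MZT2 was not tested beyond this correction.

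**Figure D2:**
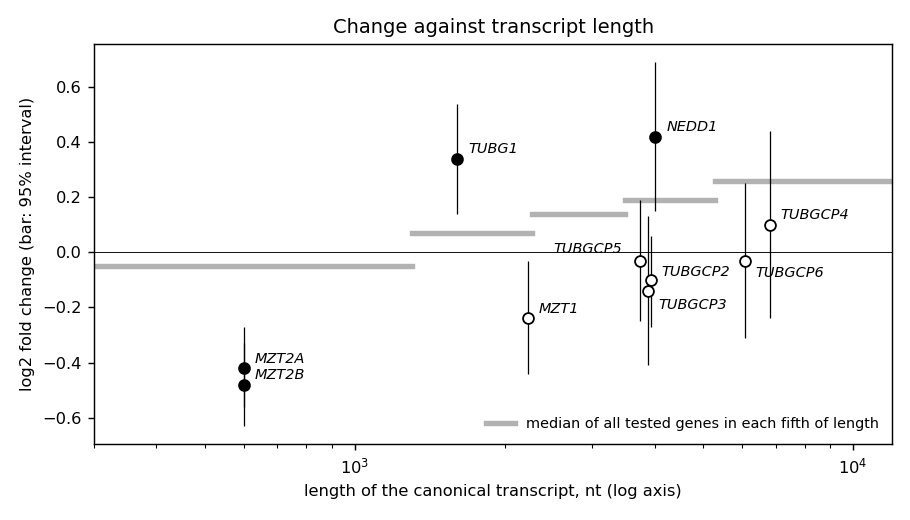
Log2 fold change of each gene (points, with 95% intervals) against the length of its canonical transcript (log axis). Filled points have an adjusted p under 0.05, and grey bars give the median of all tested genes in each quintile of length, from -0.05 in the shortest to 0.26 in the longest. MZT2A, MZT2B, MZT1 and all TUBGCP genes lie below the bar of their quintile, and TUBG1 and NEDD1 above theirs.

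MZT1 encodes MOZART1, a conserved peptide-sized subunit that binds GCP3 and other GCP proteins. It was at 13.9, 16.3 and 15.2 TPM in the siCTR samples and at 13.4, 12.5 and 12.2 TPM in the siCEP20 samples. The groups did not overlap, yet the difference did not pass the test across all genes (15.1 ± 1.22 against 12.7 ± 0.641 TPM, log2 fold change -0.24, 95% interval -0.44 to -0.03, adjusted p = 0.0617 from limma). It passed with median-of-ratios scaling, with quantile normalization and without siCTR replicate 1 (adjusted p = 0.0404). No window of 150 bases of its transcript occurs in another gene (0 of 2082).

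TUBG1 encodes γ-tubulin 1, the tubulin that contacts the end of the growing microtubule. Its hg38 position is chromosome 17, 42609641 to 42615238, plus strand. TUBG1 was at 126, 135 and 137 TPM in the siCTR samples and at 148, 172 and 186 TPM in the siCEP20 samples. All siCEP20 values were higher, with a wider spread than in the controls, and the mean rose from 133 ± 5.96 to 169 ± 19.6 TPM (SD, n = 3 each). The log2 fold change was 0.34 (standard error 0.0873, 95% interval 0.14 to 0.54, adjusted p = 0.0147 from limma; exact permutation p = 0.1). Without siCTR replicate 1 the log2 fold change was 0.30 and the adjusted p was 0.0518. After the length and GC correction it was 0.43.

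TUBG2, the paralog of TUBG1 on the same chromosome, is not among the 10 genes and served as a comparison. It was at 32.2, 38.3 and 40.2 TPM in siCTR and at 36.2, 38 and 39.6 TPM in siCEP20 samples, with overlapping groups (log2 fold change 0.04, 95% interval -0.17 to 0.26, adjusted p = 0.726 from limma). TUBG1 supplied 79.6%, 77.9% and 77.3% of the summed TPM of both in siCTR libraries and 80.3%, 81.9% and 82.5% in siCEP20 libraries. The share was higher in every siCEP20 library. Fitted as a sum, both genes gave 0.28 on the log2 scale (limma adjusted p = 0.0268). Their canonical transcripts are 81.7% identical, and 6.2% of the TUBG1 windows of 150 bases occur in TUBG2. TUBG1 also overlaps RETREG3 on the opposite strand over 983 bases, a gene at 29.3 to 34 TPM in siCTR and 25 to 28.8 TPM in siCEP20 samples.

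NEDD1 encodes the adaptor that carries the ring complex to the centrosome and, through augmin, to the sides of spindle microtubules. It lies on chromosome 12 from 96907224 to 96953780, on the plus strand. NEDD1 was at 10.2, 12.6 and 13.7 TPM in the siCTR samples and at 15.9, 15.6 and 18 TPM in the siCEP20 samples. The groups were separate, and the mean rose from 12.2 ± 1.83 to 16.5 ± 1.33 TPM. The log2 fold change was 0.42 (standard error 0.119, 95% interval 0.15 to 0.69, adjusted p = 0.0218 from limma; exact permutation p = 0.1). Without siCEP20 replicate 3 it was 0.36 with an adjusted p of 0.0711. No window of 150 bases of NEDD1 occurs in another gene (0 of 3866), and no overlapping gene reached a mean of 1 TPM.

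The promoter windows of TUBG1 and NEDD1, the members that rose, are shown with letter matches in capitals. The motifs searched on both strands were CCAAT (the CCAAT box), GGGCGG (the GC box), CCGGAA (the core of ETS sites) and TTTGAA (the cell cycle homology region, CHR), and no capitals here belong to more than 1 motif.
TUBG1, chr17:42609433-42609732, plus strand: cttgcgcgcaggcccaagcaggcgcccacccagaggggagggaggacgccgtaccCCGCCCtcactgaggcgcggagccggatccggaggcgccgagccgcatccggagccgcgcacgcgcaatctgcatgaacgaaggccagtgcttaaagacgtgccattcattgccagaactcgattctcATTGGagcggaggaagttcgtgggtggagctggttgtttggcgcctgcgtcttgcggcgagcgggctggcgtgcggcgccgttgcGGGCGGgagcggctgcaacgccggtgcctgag
NEDD1, chr12:96907007-96907306, plus strand: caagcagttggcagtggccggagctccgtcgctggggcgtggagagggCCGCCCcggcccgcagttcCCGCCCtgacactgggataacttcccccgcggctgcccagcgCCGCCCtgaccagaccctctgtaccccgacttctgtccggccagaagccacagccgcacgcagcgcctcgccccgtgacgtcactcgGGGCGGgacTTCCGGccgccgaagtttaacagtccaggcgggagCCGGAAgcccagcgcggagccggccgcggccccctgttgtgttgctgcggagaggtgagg
TUBG1 holds 1 CCAAT and 2 GC box matches, and the NEDD1 window holds 4 GC box and 2 ETS core matches. RefSeq windows were at hand for 9 of the 10 genes, with 11 windows in all. TUBGCP2 and NEDD1 each enter with 2 windows. Those of NEDD1 overlap, so a shared match counts in both. Of these 11, 5 hold a CCAAT match, 9 a GC box, 5 an ETS core and 1 a CHR match, the last in MZT1. Among all 35116 windows of the same length the shares were 34.6%, 45%, 17.2% and 15.2%. The matches describe letters in these windows and were not tested against the changes.

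The GCP proteins form the body of the ring, and their genes gave no change past the threshold on the deposited scale. TUBGCP2, a subunit of the small complex, was at 58.2, 63.6 and 65.7 TPM in siCTR and at 55.2, 58.1 and 61 TPM in siCEP20 samples (log2 fold change -0.10, 95% interval -0.27 to 0.06, adjusted p = 0.273 from limma). TUBGCP3, its partner, was at 13.7, 15.5 and 18.4 TPM against 15.3, 14.5 and 12.9 TPM (log2 fold change -0.14, 95% interval -0.41 to 0.13, adjusted p = 0.369). The groups overlapped in both genes. TUBGCP2 overlaps ZNF511 on the opposite strand over 4249 bases. ZNF511 was at 59.7 to 69.9 TPM in siCTR and 25.7 to 28.9 TPM in siCEP20 samples. Its part in the TUBGCP2 values was not tested. None of the 150-base windows of the canonical TUBGCP2 transcript occurs in an annotated transcript of another gene (0 of 3780). The window check does not cover unspliced reads.

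The ring-specific subunits also overlapped between groups, and TUBGCP4 and TUBGCP6 had the lowest TPM of the 10 genes. TUBGCP4 was at 3.48, 5.05 and 4.28 TPM in siCTR and at 4.32, 5.26 and 4.31 TPM in siCEP20 samples (log2 fold change 0.10, 95% interval -0.24 to 0.44, adjusted p = 0.605 from limma). Of its 150-base windows, 34.2% occur in transcripts of TP53BP1, which overlaps it on the opposite strand over 6711 bases, so the TUBGCP4 level is uncertain. ZSCAN29 overlaps it too, on the opposite strand over 1823 bases, and was at 5.88, 11.2 and 9.69 TPM in siCTR and at 17, 17.1 and 15.6 TPM in siCEP20 samples. Its part in the TUBGCP4 values was not tested. TUBGCP5 was at 15.4, 17.5 and 18.8 TPM against 17.1, 17.7 and 15.6 TPM (log2 fold change -0.03, 95% interval -0.25 to 0.19, adjusted p = 0.802). TUBGCP6 was at 7.3, 9.36 and 9.51 TPM against 8.13, 9.35 and 8 TPM (log2 fold change -0.03, 95% interval -0.31 to 0.25, adjusted p = 0.866). For these 3 genes the intervals allow changes of either sign, and the sign itself turned in some alternatives.

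**Figure D3:**
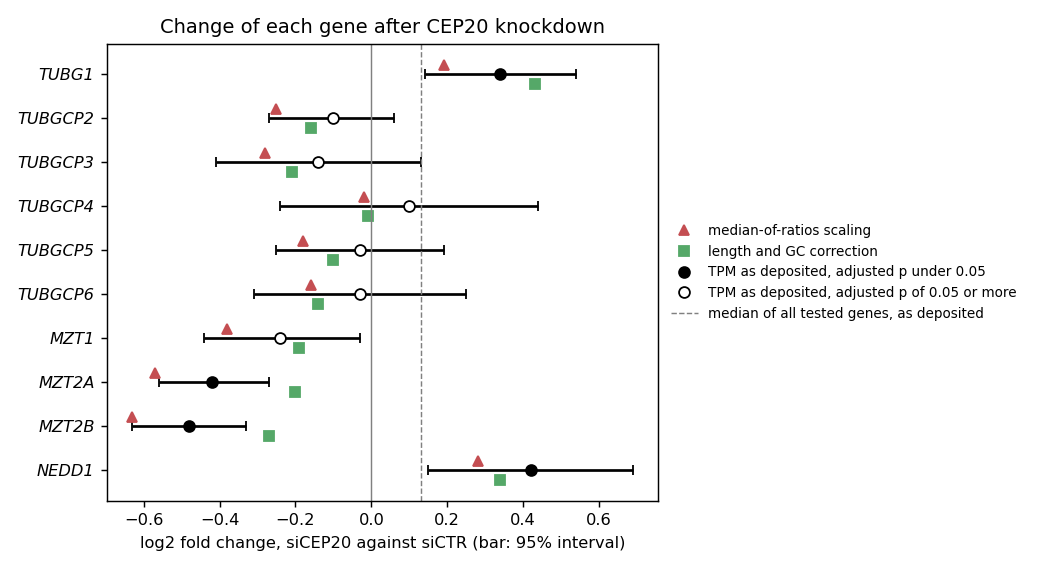
Log2 fold change of each gene, siCEP20 against siCTR, with its 95% interval on the deposited TPM scale (circles, filled at an adjusted p under 0.05), after median-of-ratios scaling (triangles) and after the length and GC correction (squares). The dashed line marks the median of all tested genes, 0.13. MZT2A and MZT2B lie below 0 and TUBG1 and NEDD1 above 0 on all 3 scales.

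Since TPM is given per length, levels of the genes can be set side by side within a group. The levels of TUBGCP4 and MZT2B are less certain, since each shares windows with a gene on the opposite strand, as given above. In siCTR cells the order of mean TPM was MZT2B (276), MZT2A (148), TUBG1 (133), TUBGCP2 (62.5), TUBGCP5 (17.2), TUBGCP3 (15.9), MZT1 (15.1), NEDD1 (12.2), TUBGCP6 (8.72) and TUBGCP4 (4.27). Neighbours in this order were separate over the 3 libraries except TUBGCP5 and TUBGCP3, and TUBGCP3 and MZT1, whose ranges overlapped. In siCEP20 cells TUBG1 (169) stood second, above MZT2A (111), and its range overlapped that of MZT2B (197). NEDD1 (16.5) stood next to TUBGCP5 (16.8), with overlapping ranges, and above TUBGCP3 (14.2). The transcripts of the small complex were thus at unequal levels in both groups. TUBGCP2 was at 3.97 ± 0.356 times TUBGCP3 in siCTR and 4.12 ± 0.57 times in siCEP20 libraries (SD, n = 3, overlapping). Protein levels were not measured here.

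Ratios within a library show the change in balance without any scaling between libraries. The ratio of MZT2A plus MZT2B to TUBG1 was 3.39, 3.16 and 3.06 with control siRNA and 2.09, 1.87 and 1.57 after CEP20 knockdown. The mean went from 3.21 ± 0.171 to 1.84 ± 0.261, with no overlap. The ratio of TUBG1 to the 5 summed TUBGCP genes was 1.28, 1.22 and 1.17 in siCTR and 1.48, 1.64 and 1.83 in siCEP20 libraries, and the groups were again separate. MZT2A plus MZT2B over the summed TUBGCP genes went from 3.93 ± 0.388 to 3.01 ± 0.118, also without overlap. The summed TUBGCP genes themselves came to 98.1, 111 and 117 TPM in siCTR and 100, 105 and 102 TPM in siCEP20 libraries, which overlapped. NEDD1 over MZT1 went from 0.801 ± 0.0925 to 1.31 ± 0.155 without overlap. MZT2A, MZT2B and MZT1 were lower, and TUBG1 and NEDD1 higher, in every siCEP20 library. The separation of MZT2 over TUBG1 and of NEDD1 over MZT1 therefore follows from the single genes and adds no support. The ratios are descriptions with no test, since the genes were chosen with earlier results of these data known. Those with MZT2 carry its dependence on transcript length.

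**Figure D4:**
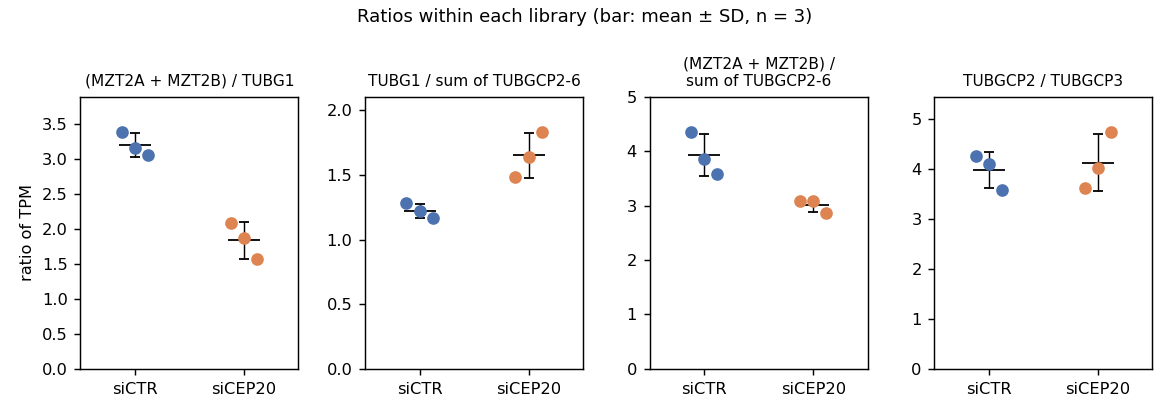
Ratios of TPM within each of the 3 siCTR and 3 siCEP20 libraries, with mean and SD as bars and axes from 0. The MZT2 to TUBG1 ratio sits between 3.06 and 3.39 in siCTR and between 1.57 and 2.09 in siCEP20 libraries, while TUBGCP2 over TUBGCP3 overlaps between groups.

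Genes that recruit, activate or assist the ring complex were higher or did not pass the test. Over 6 lists with 38 genes, all tested, 20 rose and 0 fell (limma, adjusted p under 0.05). Their median log2 fold change was 0.23, which is 0.10 above that of all tested genes. Among all tested genes 30.2% were higher and 13.2% lower. The count depended on the processing. With median-of-ratios scaling 8 were higher and 3 lower, when 20.1% of all tested genes were higher and 21.6% lower, so the share of the 38 that was higher lay near the background. After the length and GC correction 12 were higher and 1 lower, against 28.3% and 12.1% of all tested genes. With 1 library left out, 10 to 16 were higher.

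The recruitment list holds the large scaffold and anchoring proteins of the centrosome and Golgi that bind or activate the complex. Of its 11 genes, 9 were higher and 0 lower, against 30.2% and 13.2% of all tested genes. The list is one of long transcripts: 8 of the 11 belong to the longest quintile, in which 41.7% of tested genes were higher and the median log2 fold change was 0.26. The part of length in the count was not tested for this list alone. AKAP9, which anchors the complex at the Golgi and centrosome, rose from 3.93 ± 0.383 to 7.13 ± 1.8 TPM (SD, n = 3 each, log2 fold change 0.70, adjusted p = 0.00953 from limma). MAPRE1, the end-binding protein EB1, rose from 149 ± 3.78 to 173 ± 2.98 TPM (0.22, adjusted p = 0.00952), but did not pass with median-of-ratios scaling (0.07, adjusted p = 0.273). NINL, a ninein-like centrosomal protein, rose from 12.4 ± 1.13 to 16.6 ± 1.09 TPM (0.40, adjusted p = 0.0106).

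Augmin, which binds the ring complex through NEDD1 and branches new microtubules from existing ones, gave 2 higher and 0 lower of 8 genes. Over all tested genes the shares were 30.2% and 13.2%, so the count of higher genes lay near the background. HAUS6, the subunit that contacts NEDD1, rose from 13.5 ± 0.588 to 20.7 ± 0.391 TPM (log2 fold change 0.59, adjusted p = 0.000591 from limma). HAUS4 rose from 54.3 ± 3.09 to 63.2 ± 2.64 TPM (0.22, adjusted p = 0.0328), a call that was lost in 9 of 16 alternatives. The other subunits ranged from -0.21 to 0.37 on the log2 scale without passing.

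Among 7 partners of nucleation in the spindle, 5 were higher and 0 lower, against 30.2% and 13.2% of all tested genes. Of the 7, 3 belong to the longest quintile, in which 41.7% of tested genes were higher. The part of length and of scaling in this count was not tested for the list alone. KIF2A, a kinesin that depolymerizes microtubule ends, rose from 30.7 ± 2.93 to 44.4 ± 1.27 TPM (log2 fold change 0.52, adjusted p = 0.00147 from limma). HMMR, a spindle assembly factor, rose from 11.6 ± 1.87 to 18.8 ± 0.288 TPM (0.66, adjusted p = 0.00232). CKAP5, the microtubule polymerase chTOG that works with γ-tubulin in nucleation, rose from 52.5 ± 7.24 to 74.9 ± 1.95 TPM (0.51, adjusted p = 0.00409).

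Of 7 kinases that act on the complex or its adaptors, 2 were higher and 0 lower. All tested genes gave 30.2% and 13.2%, so the count of higher kinases lay near the background. PLK4, the kinase of centriole duplication, rose from 4.68 ± 0.427 to 7.76 ± 0.262 TPM (log2 fold change 0.63, adjusted p = 0.00208 from limma). PLK1, the mitotic kinase that primes NEDD1 for γ-tubulin binding, rose from 104 ± 7.96 to 129 ± 14.1 TPM (0.30, adjusted p = 0.028), a call lost in 7 of 16 alternatives. The remaining lists were small. ACTB, whose product actin sits in the lumen of the ring, rose from 3920 ± 497 to 5660 ± 446 TPM (0.54, adjusted p = 0.00296), while TUBG2 and NME7 in the same list did not pass. TUBD1, δ-tubulin, was at 10.7 ± 1.02 and 14 ± 2 TPM (0.35, adjusted p = 0.0479), with overlapping groups and a call lost in 9 of 16 alternatives. TUBE1, ε-tubulin, did not pass (-0.16, adjusted p = 0.115).

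Several genes of the complex and its partners are used most in mitosis, so 10 mitotic genes are given beside them. Of these, 5 rose and 1 fell (adjusted p under 0.05), against 30.2% and 13.2% of all tested genes, and 4 did not pass. MKI67 rose from 23.6 ± 2.68 to 45.8 ± 3.46 TPM (log2 fold change 0.93, adjusted p = 0.000261 from limma), CENPF from 9.54 ± 1.04 to 17.1 ± 1.48 TPM (0.78, adjusted p = 0.000771) and BUB1 from 23.2 ± 1.05 to 32 ± 1.3 TPM (0.44, adjusted p = 0.00175). CCNB1, named here after its value was seen as the single gene that fell, went from 151 ± 8.25 to 127 ± 5.19 TPM (-0.25, adjusted p = 0.0122). The sum of the 10 ran from 683 to 801 TPM in siCTR and from 766 to 851 TPM in siCEP20 libraries. In separate assays of A549 cells, the paper reports arrest in S phase by flow cytometry and reduced proliferation after CEP20 knockdown. Those assays were not set against the RNA values here. In bulk RNA a change in the share of mitotic cells and a change of RNA per cell cannot be told apart. Their part in the values of TUBG1 and NEDD1 was not tested.

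**Figure D5:**
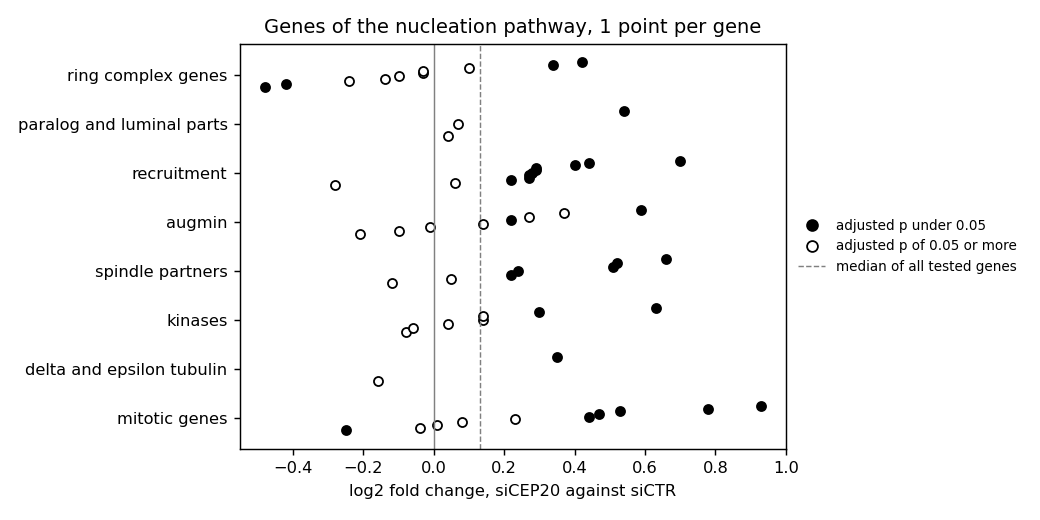
Log2 fold change, siCEP20 against siCTR, of each gene (1 point) in the 10 ring complex genes and in the lists described above, filled at an adjusted p under 0.05. The dashed line is the median of all tested genes, 0.13. Recruitment genes and spindle partners lie mostly to its right, while the ring complex genes spread from -0.48 to 0.42.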

How the data were processed

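RNA-seq of 6 A549 libraries was used, 3 siCEP20 and 3 siCTR. The authors trimmed reads with fastp 0.20.1, aligned them to hg38 with HISAT2 2.1.0 and quantified genes with StringTie 2.0 (methods and submitters' processing notes). They deposited TPM per Ensembl gene. The methods describe removal of the labelled second cDNA strand, which keeps strand information, and alignment with default settings. The annotation release and the strand setting of the quantification are not given in the sources used here. TPM keeps no read counts, so depth is unknown and precision rests on the replicates. The DESeq2 test of the authors needs counts and was not used.

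Genes were named and placed with GENCODE release 44 (60370 of 60624 IDs had a symbol). The 14778 genes whose mean TPM reached 1 were kept, and log2(TPM + 1) was fitted with limma 3.58.1 in R 4.3.3 (eBayes with trend, no rescaling, no block), 2-sided, with Benjamini-Hochberg adjustment over all tested genes. The added 1 shrinks fold changes of low genes. Intervals are 95%. On simulated data the fit recovered 48 of 100 genes with an absolute log2 fold change of 0.6, and 81 of 100 at 1. It called 6 of 14578 unchanged genes. Smaller changes were not simulated, so a member that did not pass may still have changed. Members, lists and tests were chosen with earlier results of these data known. Named were the members, CEP20, and in each list up to 3 genes with the smallest adjusted p under 0.05. Length and GC content came from canonical transcripts (99.7% of tested genes). Sequences came from RefSeq (GRCh38.p14) and were aligned with edlib in Python 3.11.15. Alternatives were each library left out, another pseudocount, other filters, scalings and fold thresholds, a replicate block, eBayes with no trend, a loess correction for length and GC, protein-coding genes alone, and summed paralogs.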

Additional observations from a re-analysis of the deposited data

How the results depend on the processing

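On the deposited scale 2 members rose and 2 fell (adjusted p under 0.05), and 0 were called with a fold change of 1.5. Without the filter on low TPM, 0 were higher (TUBG1 0.34, adjusted p = 0.0624; NEDD1 0.42, adjusted p = 0.0748). With median-of-ratios scaling 0 were higher, 4 lower and 1 called lower (MZT2B), with TUBG1 at 0.19, NEDD1 at 0.28, TUBGCP2 at -0.25, MZT1 at -0.38 and TUBGCP4 turned to -0.02. With quantile normalization 1 was higher and 4 lower, with NEDD1 at 0.26, TUBGCP2 at -0.18, MZT1 at -0.39 and TUBGCP4 turned to -0.07. The length and GC correction turned TUBGCP4 to -0.01. Summing paralogs left 1 lower row, since MZT2A and MZT2B became 1. With a fold change of 1.2, 2 were called higher and 2 lower. With each library left out, 1 to 2 members were higher, and the log2 fold change ran from 0.27 to 0.43 for TUBG1, 0.31 to 0.51 for NEDD1, -0.29 to -0.19 for MZT1, -0.01 to 0.21 for TUBGCP4, -0.11 to 0.03 for TUBGCP5 and -0.14 to 0.03 for TUBGCP6. TUBGCP5 turned to 0.02 without siCEP20 replicate 3 and to 0.03 without siCTR replicate 3, and TUBGCP6 to 0.01, 0.02 and 0.03 without siCEP20 replicate 3, siCTR replicate 2 and siCTR replicate 3. MZT2A (-0.57 to -0.20) and MZT2B (-0.63 to -0.27) passed in all 15 alternatives with a row of their own. Other causes of these shifts were not tested.

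Of the 38 pathway genes, 20 were higher and 0 lower. The counts were 13 higher without a filter, 8 higher and 3 lower with median-of-ratios scaling, and 11 and 3 with quantile normalization. They were 12 and 1 with the length and GC correction, and 10 to 16 higher and 0 to 1 lower with 1 library left out. With a replicate block 17 were higher, and with no eBayes trend 16. For CEP20 and the genes named by the rule on adjusted p, 230 of 256 values kept direction and side of the threshold and 26 lost the call. CCNB1, TUBE1, TUBG2 and NME7, named outside that rule, were not recomputed one by one. Over all genes the split of calls moved with scaling, from 70.9% higher as deposited to 44.8% with median-of-ratios scaling and 47.6% with quantile normalization.

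The replicate numbers gave no clear sign of pairing. Deviations from the group means correlated at 0.16, -0.06 and -0.06 for equal numbers 1, 2 and 3. siCEP20 1 correlated best with its own number, and siCEP20 2 and 3 with another number. Deviations from a mean of 3 libraries depend on each other, so this check cannot exclude paired cultures. With the replicate number as a block, no member call changed (2 higher, 2 lower). Of the 38 pathway genes 17 were higher instead of 20, with HAUS4 among the lost calls (adjusted p = 0.0574 from limma). Over all tested genes 4274 were higher and 1857 lower instead of 4457 and 1944.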

Other observations

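Among the 10 genes, likeness was measured as the Euclidean distance between centred log2(TPM + 1) profiles over the 6 libraries, a description that mixes the group difference with the spread within groups. TUBG1 and NEDD1 were each other's nearest gene (0.287), as were MZT1 and MZT2A (0.262) and TUBGCP5 and TUBGCP6 (0.147). The nearest gene to MZT2B was MZT2A (0.267). Among all tested genes, the profiles closest to TUBG1 were those of NCKIPSD (0.068), MSH5 (0.0756) and DYNLRB1 (0.0817), a subunit of cytoplasmic dynein, with log2 fold changes of 0.32, 0.35 and 0.36.

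In total the 10 genes took 675, 702 and 702 TPM with control siRNA and 585, 628 and 611 TPM after knockdown. The siCEP20 sums were lower in every library, although TUBG1 and NEDD1 were higher. MZT2A over MZT1, the ratio between MOZART genes, was 10.1, 9.03 and 10.4 in siCTR and 8.59, 8.85 and 8.76 in siCEP20 libraries.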
